A study of Mus musculus with 12 samples.

Results

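A set of 20 histone genes was followed through male meiosis in 2 inbred mouse strains. They are the genes whose old or current symbol places them among the replication-dependent histones (the former Hist clusters), the linker histones or the replacement histones H2A.Z, macroH2A and H3.3, and that have a probeset (a set of short oligonucleotides on the array) annotated to that gene alone. *H2ax*, *H1f7* and *Hils1* were left out. By this rule 28 of the 45037 probesets tested and 20 of the 18193 genes they name were members. The classes were *H1f6* (the testis linker H1t), *H1f8* (an oocyte linker), 10 replication-dependent genes (*H1f2*, *H1f4*, *H2ac19*, *H2aw*, *H2bc18*, *H2bc21*, *H2bc22*, *H3c4*, *H3c7* and *H3c11*) and 8 replacement genes (*H1f10*, *H2az1*, *H2az2*, *H3f3a*, *H3f3b*, *Macroh2a1*, *Macroh2a2* and *Macroh2a3*). No H4 gene had a probeset of its own, and the testis H2A and H2B genes *H2ac1* and *H2bc1*, like *H1f0*, *H1f1*, *H1f3* and *H1f5*, are not analysed here.

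The study examined hybrid sterility between mouse subspecies and sorted germ cells of its 2 parental strains. PWD/Ph (PWD) represents Mus musculus musculus and C57BL/6J (B6) represents M. m. domesticus. Testes of males aged 8 to 10 weeks were sorted by flow cytometry into prepachytene spermatocytes (which the methods describe as reaching into early pachytene), pachytene spermatocytes and spermatids, and 15 to 40 ng of total RNA per sample was labelled for Affymetrix Mouse Genome arrays. Each of the 6 groups (PWD prepachytene, B6 prepachytene, PWD pachytene, B6 pachytene, PWD spermatids, B6 spermatids) had 2 arrays.

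Replication-dependent histone genes supply the nucleosomes of S phase. Their messengers normally end in a stem-loop bound by the protein SLBP rather than in a poly(A) tail, although some of these genes also give polyadenylated transcripts in cells that have left the cell cycle. Replacement histones are made throughout the cell cycle from polyadenylated messengers and are set into chromatin by their own chaperones. The male germ line also has histones of its own, and macroH2A is known for its enrichment on the silenced sex chromosomes of spermatocytes. The labelling used here starts from an oligo(dT) primer, so that the values of replication-dependent genes describe what that primer could reach.

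Promoter sequences were taken from RefSeq windows (GRCm38.p6) that run from 250 bases before to 50 bases after the gene start. Of the 20 genes 17 had such a window, and *H2bc21*, *H3c7* and *Macroh2a3* had none. The last 120 bases before the start are shown for the 3 linker genes that share an H1 box with a CCAAT box, for the replication-dependent core genes whose levels moved most among those with a window, and for *H2az1* as a replacement gene. Capitals mark the motifs searched on both strands, namely the CCAAT box (CCAAT, written ATTGG where it lies on the other strand), the H1 box (AAACACA), the H2B octamer (ATTTGCAT, written ATGCAAAT on the other strand) and the TATA box (TATAAA). No 2 of these motifs overlap in the sequences shown.
*H1f6*, chr13:23695691-23695810, + strand: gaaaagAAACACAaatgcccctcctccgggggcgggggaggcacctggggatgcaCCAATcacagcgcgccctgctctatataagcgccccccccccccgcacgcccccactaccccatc
*H1f2*, chr13:23738687-23738806, + strand: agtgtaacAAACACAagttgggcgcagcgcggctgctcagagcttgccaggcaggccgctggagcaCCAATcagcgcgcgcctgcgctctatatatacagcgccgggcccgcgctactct
*H1f4*, chr13:23622559-23622678, - strand: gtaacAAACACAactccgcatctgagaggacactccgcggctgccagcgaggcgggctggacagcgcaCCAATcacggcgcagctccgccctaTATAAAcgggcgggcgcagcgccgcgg
*H2ac19*, chr3:96240375-96240494, - strand: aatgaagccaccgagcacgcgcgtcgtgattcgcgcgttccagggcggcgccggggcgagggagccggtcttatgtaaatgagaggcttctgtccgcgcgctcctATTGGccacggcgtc
*H2aw*, chr11:58954565-58954684, + strand: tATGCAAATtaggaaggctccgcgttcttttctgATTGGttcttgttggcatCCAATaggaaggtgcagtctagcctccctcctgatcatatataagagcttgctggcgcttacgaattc
*H2bc22*, chr13:21787368-21787487, + strand: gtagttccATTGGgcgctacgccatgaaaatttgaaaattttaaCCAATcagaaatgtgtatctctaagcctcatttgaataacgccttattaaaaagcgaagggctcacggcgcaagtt
*H2az1*, chr3:137864367-137864486, + strand: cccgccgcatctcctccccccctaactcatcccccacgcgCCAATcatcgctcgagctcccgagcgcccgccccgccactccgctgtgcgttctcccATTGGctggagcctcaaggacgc

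These bases lie directly upstream of the annotated gene starts, and positions are counted back from the start. The H1 box began at -114 in *H1f6*, at -112 in *H1f2* and at -115 in *H1f4*, and the CCAAT box followed at -65, -54 and -52 in the same order. Over the whole 300-base windows a CCAAT box was found in 15 of the 17 histone genes and in 37.4% of all 32851 mouse windows. The H1 box was found in 4 of the 17 (*H1f2*, *H1f4*, *H1f6* and *H3f3a*), against 7.18% of all windows. The octamer was found in 3 (*H2bc18*, *H2aw* and *H3f3b*), against 1.74%, and not in the H2B gene *H2bc22*. A TATA box was found in 5, against 13.6% of all windows. An E2F-type motif (GCGCGAAA) was found in *H2bc22* alone of the 17, against 0.323% of all windows, and the cAMP response element (TGACGTCA) was found in none, against 1.79%. *H2bc22* and the H2A gene *H2ac22* start 240 bases apart on opposite strands and so share an upstream region. These matches describe letters and not bound sites.

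Before the histone genes were compared, the arrays were checked. Correlations between the 2 arrays of a group were 0.987 to 0.996 over all probesets, lowest for PWD prepachytene spermatocytes. A background level of 3.78 on the log2 scale was set from 55 probesets of genes of other organs. Of the markers listed for each population, all 15 measured prepachytene genes were lower in pachytene than in prepachytene spermatocytes, all 12 pachytene genes were higher there, and all 16 spermatid genes were higher in spermatids than in pachytene spermatocytes. The prepachytene arrays also carried spermatid and Sertoli cell transcripts. The summed level of the 16 spermatid markers was 16.39 to 16.70 in PWD and 15.75 to 15.81 in B6 prepachytene spermatocytes on the log2 scale, against 14.73 to 15.30 in PWD and 14.41 to 14.61 in B6 pachytene spermatocytes and 17.34 to 17.83 in PWD and 18.00 on each array in B6 spermatids, with all 16 above background in every group. The 11 Sertoli markers summed to 15.13 to 15.40 in PWD (8 of 11 above background) and 14.61 to 14.91 in B6 prepachytene spermatocytes (7 of 11), 9.37 to 9.62 in PWD and 8.90 to 9.15 in B6 pachytene spermatocytes (6 of 11 in each) and 10.95 to 11.45 in PWD (7 of 11) and 10.14 to 10.52 in B6 spermatids (6 of 11). Of 11 spermatogonia markers 8 in PWD and 7 in B6 were above background in prepachytene spermatocytes, 2 in each strain in pachytene spermatocytes, and 4 in PWD and 2 in B6 spermatids. Their summed level was 12.20 to 12.53 in PWD and 12.13 to 12.68 in B6 prepachytene spermatocytes, 12.18 to 12.93 in PWD and 12.05 to 12.09 in B6 pachytene spermatocytes, and 8.94 to 8.95 in PWD and 8.09 to 8.25 in B6 spermatids, and 6 of the 11 were lower and 1 higher in pachytene than in prepachytene spermatocytes. In pachytene spermatocytes most of this sum came from *Id4*, which read 12.15 and 12.91 in PWD and 12.06 and 12.02 in B6. Of the 5 Leydig cell markers none had a mean above background, and 1 of the 8 of peritubular and blood cells did. The part of such cells in the histone values was not tested, and fewer cells of a type cannot be told apart from less RNA per cell in such bulk samples.

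In what follows a level is a deposited log2 value, a change is a difference of log2 values given with its standard error, and each gene is read by its probeset with the highest mean. Of the 20 genes 14 had a mean over the 12 arrays above background and 15 had a group above it. *H1f8*, *H2bc18*, *H3c4*, *H3c7* and *H3c11* had none. The probesets read for *H2ac19*, *H2az1*, *H2bc22*, *Macroh2a2* and *Macroh2a3* carry an x suffix and that of *H2bc21* an s suffix, which mark probes that can match other transcripts. Where all arrays of the dimmer group lay below background, its arrays were set to the background level and the fold is given as a lower bound.

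**Figure D1:**
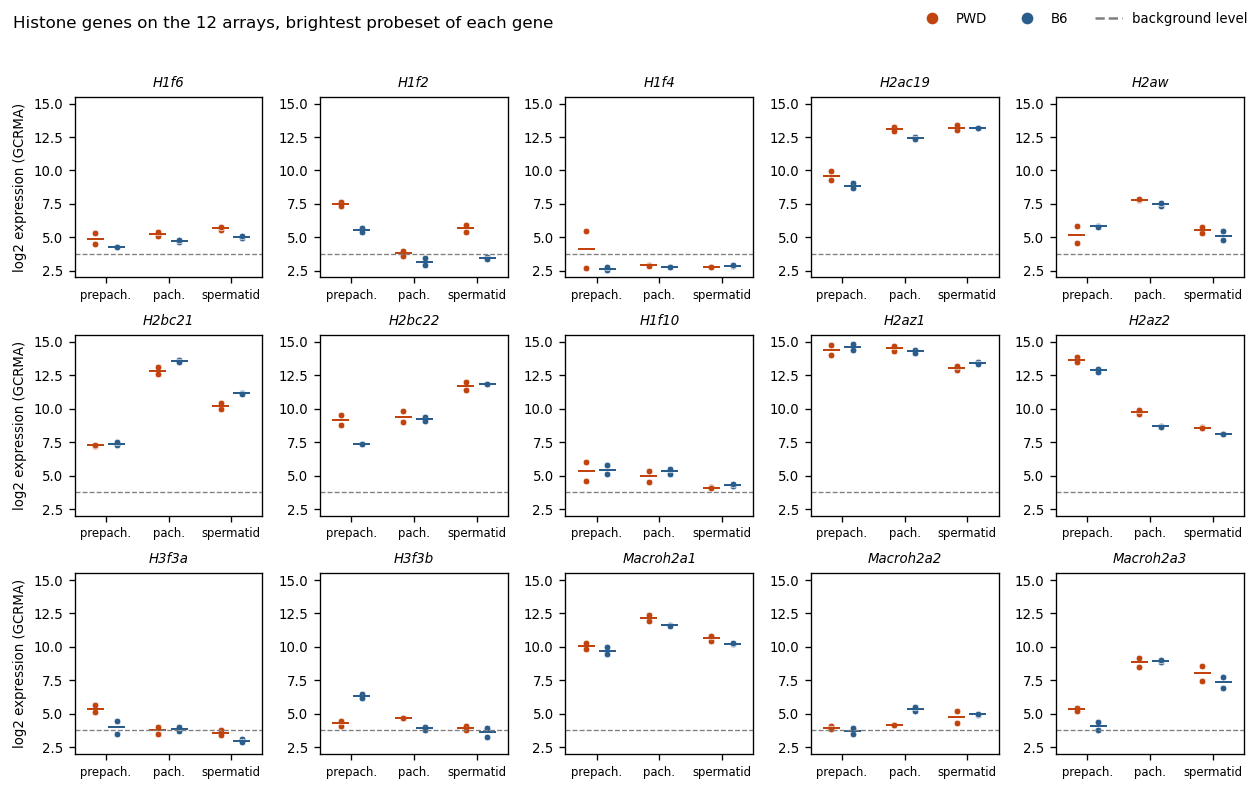
Log2 level (y axis) of the 15 histone genes with at least 1 group mean above background, in prepachytene spermatocytes, pachytene spermatocytes and spermatids (x axis). Points are single arrays, short bars are the means of the 2 arrays, PWD stands left of B6, and background (3.78) is drawn dashed. *H2bc21* and *H2ac19* stand higher in pachytene than in prepachytene spermatocytes on every array, and *H2az2* and *H1f2* stand lower.

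From prepachytene to pachytene the histone genes moved in both directions. Of the 20 genes 8 were higher and 4 lower in pachytene than in prepachytene spermatocytes (limma, adjusted p under 0.05), where 43.7% of all genes were higher and 28.4% lower. Their median log2 difference was 0.08, the same to this precision as the 0.08 of all genes. It was set by *H3c4* and *H3c7*, which read below background in both populations, and so does not describe the genes above background. Replication-dependent genes had 5 of 10 higher (*H2bc21*, *H2ac19*, *H2aw*, *H2bc22* and *H3c7*) and 1 lower (*H1f2*), and replacement genes had 3 of 8 higher (*Macroh2a3*, *Macroh2a1* and *Macroh2a2*) and 3 lower (*H2az2*, *H3f3b* and *H3f3a*). With each array centred on the median of its probesets above background the split was 13 higher and 3 lower. Over all 18193 genes it was then 11781 higher and 4269 lower. Spermatogonia, spermatid and Sertoli markers moved at this step too, in the amounts given above.

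From pachytene to spermatids 2 of the 20 genes were higher (*H2bc22* and *H1f2*) and 6 lower (*H2bc21*, *H2aw*, *Macroh2a1*, *Macroh2a3*, *H2az1* and *H2az2*), where 18.2% of all genes were higher and 23.8% lower. The median log2 difference was -0.02 over the 20 genes and 0.01 over all genes. The middle of the 20 was set by *H1f4* and *H3c11*, which read below background in both populations. All 4 replacement genes that passed were lower in spermatids, with a median log2 difference of -0.89 over the 8, whereas the replication-dependent genes had 2 of 10 in each direction and a median of 0.03. That median of 0.03 was set by *H2bc18* and *H3c7*, which read below background on every array, so the 2 medians do not compare expressed genes alike. With centred arrays the split was 7 higher and 6 lower, and 8846 higher and 3763 lower over all 18193 genes. The difference between the classes was not tested.

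**Figure D2:**
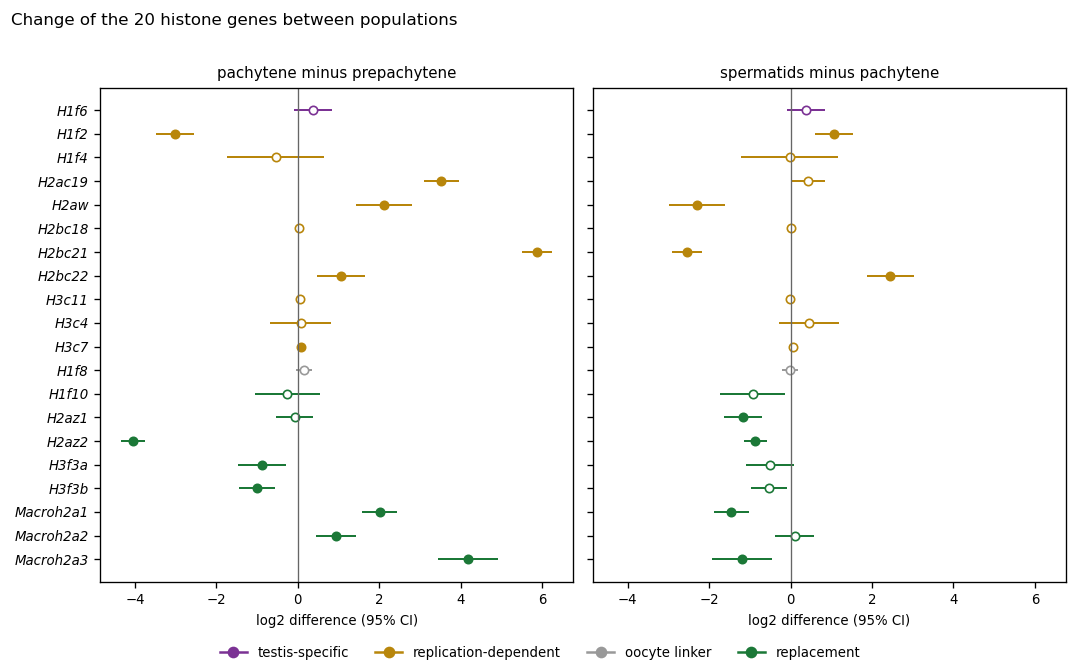
Log2 difference (x axis) of each of the 20 histone genes, pachytene minus prepachytene (left) and spermatids minus pachytene (right), averaged over PWD and B6. Bars are 95% confidence intervals from limma, filled points passed the adjusted threshold, and colours give the histone class. *H2bc21*, *H2ac19* and *Macroh2a3* lie farthest to the right in the left panel at 5.88, 3.53 and 4.17, and *H2az2* lies farthest to the left at -4.06.

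The testis linker *H1f6*, which replaces part of the somatic H1 in spermatocytes, stayed near background. Its log2 levels were 5.33 and 4.49 in PWD and 4.29 and 4.28 in B6 prepachytene spermatocytes, 5.08 and 5.37 in PWD and 4.62 and 4.79 in B6 pachytene spermatocytes, and 5.55 and 5.77 in PWD and 4.93 and 5.08 in B6 spermatids. In each population both PWD arrays lay above both B6 arrays, with PWD minus B6 log2 differences of 0.63 (adjusted p = 0.17), 0.53 (adjusted p = 0.23) and 0.66 (adjusted p = 0.20). Neither step passed (log2 difference 0.37 ± 0.19, adjusted p = 0.12, into pachytene, and 0.37 ± 0.19, adjusted p = 0.24, into spermatids). Without array 1 of PWD prepachytene the steps passed, at 0.58 (adjusted p = 0.0058) and 0.37 (adjusted p = 0.047), and with centred arrays at 0.85 (adjusted p = 0.0031) and 0.63 (adjusted p = 0.023). The oocyte linker *H1f8* read 2.56 to 3.09 on the 12 arrays, below background throughout.

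The somatic linker *H1f2* (H1c) was highest in prepachytene spermatocytes. It read 7.62 and 7.31 in PWD and 5.66 and 5.38 in B6 prepachytene spermatocytes, 4.01 and 3.58 in PWD and 2.95 and 3.42 in B6 pachytene spermatocytes, and 5.41 and 5.94 in PWD and 3.54 and 3.37 in B6 spermatids (log2 levels). All 4 prepachytene arrays lay above all 4 pachytene arrays, and the fitted log2 difference was -3.01 ± 0.19 (adjusted p = 3e-06), although only 1 of the 4 pachytene arrays was above background. The gain into spermatids (1.08 ± 0.19, adjusted p = 0.0026) passed in PWD (1.88 ± 0.27, adjusted p = 0.0013) but was 0.27 ± 0.27 in B6 (adjusted p = 0.50), where both populations read below background. The test of that difference between the strains did not pass (1.61 ± 0.38, adjusted p = 0.065). A further probeset of *H1f2*, below background on all 4 pachytene arrays, was at least 3.44-fold lower there (fitted log2 difference -3.00 ± 0.27) and gave 0.71 ± 0.27 into spermatids (adjusted p = 0.094), and the remaining one read 1.52 to 1.66 on every array.

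*H1f4* (H1e), another somatic linker, read 5.50 on array 1 of PWD prepachytene and 2.59 to 2.93 on the other 11 arrays, the second PWD prepachytene array among them at 2.69. No comparison of it passed on all 12 arrays. Its log2 difference into pachytene was -0.55 ± 0.50 (adjusted p = 0.35), 0.16 (adjusted p = 0.021) without that array and -1.25 without the other.

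Among the core histones *H2bc21* (*Hist2h2be*), an H2B gene of the histone cluster on chromosome 3, moved most. Its log2 levels were 7.22 and 7.30 in PWD and 7.29 and 7.50 in B6 prepachytene spermatocytes, 12.57 and 13.11 in PWD and 13.67 and 13.46 in B6 pachytene spermatocytes, and 9.94 and 10.40 in PWD and 11.18 and 11.14 in B6 spermatids. No array of one population overlapped those of the next. It was 58.7-fold higher in pachytene than in prepachytene spermatocytes (log2 difference 5.88 ± 0.15, adjusted p = 2.7e-08) and then 5.81-fold lower in spermatids than in pachytene spermatocytes (-2.54 ± 0.15, adjusted p = 7.5e-06). A second probeset gave 6.18 ± 0.24 and -2.61 ± 0.24 for the same steps.

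*H2ac19* (*Hist2h2aa2*), an H2A gene that another probeset names together with *H2ac18*, was higher in pachytene than in prepachytene spermatocytes. Its levels were 9.94 and 9.27 in PWD and 9.02 and 8.68 in B6 prepachytene spermatocytes, 13.21 and 12.98 in PWD and 12.50 and 12.32 in B6 pachytene spermatocytes, and 12.99 and 13.41 in PWD and 13.16 and 13.19 in B6 spermatids. It was 11.5-fold higher in pachytene than in prepachytene spermatocytes (log2 difference 3.53 ± 0.17, adjusted p = 6.3e-07), and every pachytene array lay above every prepachytene array. The next step was 0.43 ± 0.17 (adjusted p = 0.11), and 0.58 ± 0.17 (adjusted p = 0.030) on its second probeset. Whether its probesets also read *H2ac18* was not tested. Its PWD minus B6 log2 differences were 0.75 (adjusted p = 0.073), 0.68 (adjusted p = 0.11) and 0.03 in the 3 populations.

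*H2aw* (*Hist3h2a*), the H2A gene of a small cluster on chromosome 11, peaked in pachytene. It read 5.85 and 4.56 in PWD and 5.84 and 5.79 in B6 prepachytene spermatocytes, 7.76 and 7.86 in PWD and 7.33 and 7.59 in B6 pachytene spermatocytes, and 5.33 and 5.79 in PWD and 5.45 and 4.82 in B6 spermatids (log2 levels). Both of its steps passed, 2.13 ± 0.29 into pachytene (adjusted p = 0.00033) and -2.29 ± 0.29 into spermatids (adjusted p = 0.00035), with no overlap of arrays. Its second probeset gave 1.27 ± 0.34 and -3.02 ± 0.34. No comparison of the strains passed for this gene.

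*H2bc22* (*Hist1h2bp*), an H2B gene of the large cluster on chromosome 13, took the other course and was highest in spermatids. Its levels were 9.54 and 8.79 in PWD and 7.37 and 7.34 in B6 prepachytene spermatocytes, 9.83 and 8.99 in PWD and 9.37 and 9.09 in B6 pachytene spermatocytes, and 11.42 and 11.99 in PWD and 11.83 and 11.84 in B6 spermatids. The step into spermatids was 5.47-fold (log2 difference 2.45 ± 0.24, adjusted p = 9e-05) with no overlap of arrays. The step into pachytene was 1.06 ± 0.24 (adjusted p = 0.0054), made of 0.25 ± 0.34 in PWD (adjusted p = 0.55) and 1.87 ± 0.34 in B6 (adjusted p = 0.0024), and the arrays of the 2 populations overlapped. Whether the probeset of *H2bc22* also reads other H2B genes was not tested.

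The 4 remaining replication-dependent genes, *H2bc18*, *H3c4*, *H3c7* and *H3c11*, read 1.92 to 2.58 on the log2 scale, except for 3.83 for *H3c4* on array 1 of PWD spermatids, and so lay below background on all other arrays. *H3c7* passed in the first step with a log2 difference of 0.08 ± 0.03 (adjusted p = 0.034) between values that were both below background.

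The replacement H2A.Z genes, which encode a variant found at promoters, separated. *H2az2* (*H2afv*) read 13.84 and 13.46 in PWD and 12.97 and 12.78 in B6 prepachytene spermatocytes, 9.59 and 9.88 in PWD and 8.73 and 8.63 in B6 pachytene spermatocytes, and 8.61 and 8.57 in PWD and 8.09 and 8.11 in B6 spermatids (log2 levels). It was 16.6-fold lower in pachytene than in prepachytene spermatocytes (log2 difference -4.06 ± 0.12, adjusted p = 4.2e-08) and 1.82-fold lower again in spermatids (-0.86 ± 0.12, adjusted p = 0.00051). The arrays of consecutive populations did not overlap. A second probeset gave -5.15 ± 0.33 (adjusted p = 2.9e-06) and -0.97 ± 0.33 (adjusted p = 0.058) for these steps.

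On its brightest probeset *H2az1* (*H2afz*) did not pass at the step into pachytene and was lower in spermatids than in pachytene spermatocytes. It read 14.74 and 14.00 in PWD and 14.82 and 14.37 in B6 prepachytene spermatocytes, 14.34 and 14.69 in PWD and 14.42 and 14.18 in B6 pachytene spermatocytes, and 12.92 and 13.19 in PWD and 13.51 and 13.34 in B6 spermatids. Its first step was -0.08 ± 0.19 (adjusted p = 0.73), a direction that turned to 0.40 (adjusted p = 0.037) with centred arrays. A second probeset went the opposite way at this step. Its means were 13.89 in PWD and 14.16 in B6 prepachytene spermatocytes against 14.30 and 14.32 in pachytene spermatocytes. The probesets that name *H2az1* with a predicted gene, given below, were lower at this step and passed. The second step of the brightest probeset was -1.17 ± 0.19 (adjusted p = 0.0014), and no spermatid array overlapped a pachytene array.

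MacroH2A proteins carry a macrodomain beside the histone fold. Averaged over the strains, the macroH2A members, of which *Macroh2a3* is listed as a pseudogene, were all higher in pachytene than in prepachytene spermatocytes. *Macroh2a1* (*H2afy*) read 10.27 and 9.82 in PWD and 9.98 and 9.45 in B6 prepachytene spermatocytes, 11.92 and 12.42 in PWD and 11.64 and 11.59 in B6 pachytene spermatocytes, and 10.47 and 10.81 in PWD and 10.22 and 10.26 in B6 spermatids. It was 4.04-fold higher in pachytene spermatocytes (log2 difference 2.01 ± 0.18, adjusted p = 2.2e-05) and 2.74-fold lower in spermatids (-1.45 ± 0.18, adjusted p = 0.0003), without overlap at either step.

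*Macroh2a3* (*H2afy3*), which RefSeq lists as a transcribed pseudogene on chromosome 15, rose 18.1-fold into pachytene (log2 difference 4.17 ± 0.31, adjusted p = 7.6e-06). Its levels were 5.47 and 5.19 in PWD and 3.80 and 4.39 in B6 prepachytene spermatocytes, 8.53 and 9.16 in PWD and 8.85 and 9.00 in B6 pachytene spermatocytes, and 8.60 and 7.47 in PWD and 7.75 and 6.94 in B6 spermatids. The fall into spermatids was -1.20 ± 0.31 (adjusted p = 0.018), with arrays that overlapped. It did not pass without array 2 of PWD pachytene, B6 pachytene or B6 spermatids, where it was -1.04 (adjusted p = 0.068), -1.16 (adjusted p = 0.057) and -0.99 (adjusted p = 0.066). Its other probeset gave 4.90 ± 0.18 and -2.66 ± 0.18.

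*Macroh2a2* (*H2afy2*) lay close to background, with levels of 4.05 and 3.84 in PWD and 3.48 and 3.91 in B6 prepachytene spermatocytes, 4.16 and 4.16 in PWD and 5.24 and 5.47 in B6 pachytene spermatocytes, and 4.35 and 5.19 in PWD and 4.88 and 5.02 in B6 spermatids. Its first step was 0.94 ± 0.20 (adjusted p = 0.0038) and its second 0.10 ± 0.20 (adjusted p = 0.88). The first was 0.22 ± 0.28 in PWD (adjusted p = 0.53) and 1.66 ± 0.28 in B6 (adjusted p = 0.0016), and the difference between these did not pass (-1.45 ± 0.40, adjusted p = 0.055).

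The linker *H1f10* (H1x), a replacement H1, read 4.54 to 6.04 in prepachytene and pachytene spermatocytes and 4.09 to 4.36 in spermatids, with no overlap between pachytene and spermatid arrays. Its log2 difference was -0.26 ± 0.33 into pachytene (adjusted p = 0.51) and -0.93 ± 0.33 into spermatids (adjusted p = 0.076). The H3.3 genes *H3f3a* and *H3f3b*, which encode the same protein, were read by dim probesets of their own. *H3f3a* read 5.65 and 5.12 in PWD and 3.50 and 4.50 in B6 prepachytene spermatocytes and 2.88 to 4.00 on the other 8 arrays. Its first step was -0.88 ± 0.25 (adjusted p = 0.013), and -0.32 (adjusted p = 0.26) after repeated quantile normalization and -0.40 (adjusted p = 0.16) with centred arrays.

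*H3f3b* was the only gene of the 20 whose step into pachytene differed between the strains, where 13.6% of all genes did, and for the step into spermatids no member passed (0 of 20, and 6 of 20 at an unadjusted p under 0.05), where 4.66% of all genes did. Its log2 levels were 4.12 and 4.49 in PWD and 6.46 and 6.21 in B6 prepachytene spermatocytes, 4.71 and 4.67 in PWD and 4.05 and 3.81 in B6 pachytene spermatocytes, and 4.11 and 3.80 in PWD and 3.94 and 3.27 in B6 spermatids. Only the B6 prepachytene arrays stood well above background. The step was 0.39 ± 0.26 in PWD (adjusted p = 0.22) and -2.41 ± 0.26 in B6 (adjusted p = 0.0001), a difference of 2.79 ± 0.36 (adjusted p = 0.0024). Averaged over the strains it was -1.01 ± 0.18 (adjusted p = 0.0017), and -0.38 (adjusted p = 0.15) after repeated quantile normalization.

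The strains were then compared within each population. In prepachytene spermatocytes 4 of the 20 genes were higher in PWD than in B6 (*H1f2*, *H2bc22*, *H3f3a* and *H2az2*) and 1 lower (*H3f3b*), where 16.6% of all genes were higher and 5.88% lower. With centred arrays 3 were higher and 4 lower, beside 2607 and 4473 of all 18193 genes. In pachytene spermatocytes 1 was higher (*H2az2*) and 1 lower (*Macroh2a2*), where 12.1% of all genes were higher and 5.05% lower. Centred arrays gave 1 higher and 2 lower, beside 1588 and 1154 of all 18193 genes. In spermatids 1 was higher (*H1f2*) and 1 lower (*H2bc21*), where 9.56% of all genes were higher and 7.54% lower. The median PWD minus B6 log2 difference of the 20 genes was 0.13, 0.14 and 0.00 in the 3 populations in that order, beside 0.02, 0.09 and -0.03 over all genes. At the middle, *H3c11* in prepachytene spermatocytes, *H1f8* and *H1f4* in pachytene spermatocytes and *H2bc18* in spermatids read below background.

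**Figure D3:**
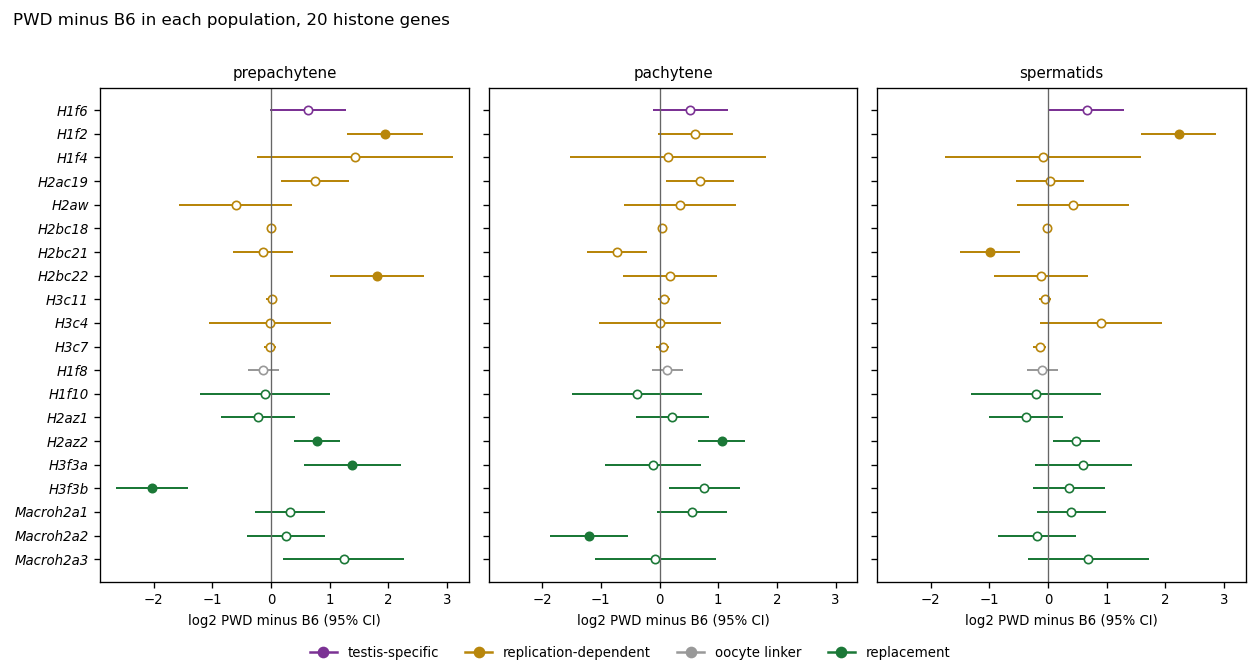
PWD minus B6 log2 difference (x axis) of each of the 20 histone genes in prepachytene spermatocytes, pachytene spermatocytes and spermatids. Bars are 95% confidence intervals from limma, filled points passed the adjusted threshold, and colours give the histone class. *H1f2* lies at 1.94, 0.61 and 2.22 in the 3 populations and *H3f3b* at -2.03, 0.76 and 0.35.

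*H1f2* was higher in PWD than in B6 prepachytene spermatocytes by 3.84-fold (log2 difference 1.94 ± 0.27, adjusted p = 0.0019) and was at least 3.71-fold higher in PWD than in B6 spermatids (fitted log2 difference 2.22 ± 0.27, adjusted p = 0.0012), where both B6 arrays were below background. The arrays of the strains did not overlap in either. In pachytene spermatocytes the log2 difference was 0.61 ± 0.27 (adjusted p = 0.17), again without overlap. Its second probeset gave fitted log2 differences of 0.99 ± 0.38 (adjusted p = 0.13), 0.03 ± 0.38 and 1.40 ± 0.38 (adjusted p = 0.054) in the 3 populations. The H2B gene *H2bc22* was higher in PWD than in B6 prepachytene spermatocytes by 1.81 ± 0.34 (adjusted p = 0.0078) and differed by 0.18 ± 0.34 and -0.12 ± 0.34 in the later populations. Spermatid and Sertoli markers were also higher in PWD than in B6 prepachytene spermatocytes, in the amounts given above, and their part in these differences was not tested.

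*H2az2* was higher in PWD in prepachytene (0.78 ± 0.16, adjusted p = 0.013) and pachytene spermatocytes (1.06 ± 0.16, adjusted p = 0.0047) and differed by 0.48 ± 0.16 in spermatids (adjusted p = 0.11), with no overlap of arrays in any of the 3. The prepachytene difference did not pass without array 2 of B6 prepachytene (0.69, adjusted p = 0.082), with centred arrays (0.50, adjusted p = 0.053) or in a fit of the compared arrays alone (adjusted p = 0.065), which also ended the pachytene call (adjusted p = 0.069). The second probeset gave 0.74 (adjusted p = 0.37), 1.54 (adjusted p = 0.068) and 0.35 (adjusted p = 0.70) in the 3 populations. *H2bc21* ran the other way, with log2 differences of -0.13 ± 0.21 in prepachytene spermatocytes (adjusted p = 0.81), -0.73 ± 0.21 in pachytene spermatocytes (adjusted p = 0.065) and -0.99 ± 0.21 in spermatids (adjusted p = 0.020). On its second probeset the last 2 were -1.39 ± 0.34 (adjusted p = 0.034) and -1.57 ± 0.34 (adjusted p = 0.020). Without array 1 of PWD spermatids the spermatid difference of the first probeset was -0.76 (adjusted p = 0.10), without array 1 of B6 spermatids -0.96 (adjusted p = 0.087) and without array 2 of B6 spermatids -1.01 (adjusted p = 0.087).

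Further strain differences concerned dim probesets. *H3f3b* was lower in PWD than in B6 prepachytene spermatocytes by 4.09-fold (log2 difference -2.03 ± 0.26, adjusted p = 0.0011), and *H3f3a* was higher there by 2.61-fold (1.39 ± 0.35, adjusted p = 0.028). The *H3f3a* difference did not pass without array 1 of PWD prepachytene (1.12, adjusted p = 0.11) or array 1 of B6 prepachytene (0.89, adjusted p = 0.12). *Macroh2a2* was lower in PWD than in B6 pachytene spermatocytes (-1.20 ± 0.28, adjusted p = 0.029), and this difference did not pass without any 1 of the 4 pachytene arrays (-1.31 to -1.08, adjusted p = 0.077 to 0.16).

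*Macroh2a3* and *H2aw* had probesets that disagreed on strain. The second probeset of *H2aw* gave PWD minus B6 log2 differences of 1.07 (adjusted p = 0.20), 0.77 (adjusted p = 0.31) and 1.10 (adjusted p = 0.23) in prepachytene spermatocytes, pachytene spermatocytes and spermatids, where the brightest gave -0.60 (adjusted p = 0.41), 0.35 and 0.43. The brightest probeset of *Macroh2a3* gave PWD minus B6 log2 differences of 1.24 ± 0.44 (adjusted p = 0.097), -0.07 ± 0.44 (adjusted p = 0.95) and 0.69 ± 0.44 (adjusted p = 0.37) in prepachytene spermatocytes, pachytene spermatocytes and spermatids. The other gave 2.37 ± 0.26 (adjusted p = 0.00053, at least 4.15-fold, since both B6 arrays were below background), 1.67 ± 0.26 (adjusted p = 0.0044) and 3.68 ± 0.26 (adjusted p = 5.5e-05), with levels of 8.57 and 8.88 in PWD spermatids against 4.74 and 5.35 in B6 spermatids. On that probeset the step into spermatids also differed between the strains, at -1.66 ± 0.26 in PWD and -3.66 ± 0.26 in B6 (difference 2.00 ± 0.36, adjusted p = 0.024). A probeset that names *Macroh2a2* together with *Macroh2a3* went the other way in prepachytene spermatocytes. It read 3.42 in PWD, below background, against 5.47 in B6, at least 3.21-fold lower in PWD (limma, adjusted p = 0.0080). Probes on this array were designed from reference sequence that is largely B6, and sequence differences of PWD at a probe can reduce its signal. Whether any probe named here holds such a base was not tested.

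Many histone genes are too alike for a probeset of their own, and 25 further probesets named several histone genes together. They are outside the rule and are given as descriptions of families, with 19 above background in their mean. In pachytene against prepachytene spermatocytes 8 of the 25 were higher and 13 lower, beside 44.3% and 24.6% of all 45037 probesets. In spermatids against pachytene spermatocytes 9 were higher and 6 lower, beside 12.1% and 18.4% of all. A pair of H4 probesets, each naming 13 H4 genes, was higher in spermatids than in pachytene spermatocytes. One read 11.66 and 12.34 in PWD and 12.37 and 12.52 in B6 spermatids against 9.65 and 8.56 in PWD and 8.65 and 8.75 in B6 pachytene spermatocytes (log2 difference 3.32, adjusted p = 3e-05), and the other differed by 2.23 (adjusted p = 6.8e-05). Another H4 probeset of the same 13 genes moved the opposite way (-1.39, adjusted p = 0.0010). A probeset that names 11 genes, *H2bc22* among them, differed by 2.66 between spermatids and pachytene spermatocytes (adjusted p = 0.0002).

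An H2A probeset that names 10 genes stood above background in prepachytene spermatocytes alone, at 7.26 and 8.22 in PWD and 7.96 and 6.94 in B6, against 1.78 to 1.83 in pachytene spermatocytes and 1.79 to 1.86 in spermatids, at least 14.0-fold lower in pachytene (fitted log2 difference -5.79, adjusted p = 4e-07). The H2A probeset that names *H2ac19* together with *H2ac18* gave 2.23 into pachytene (adjusted p = 9.9e-05) and -1.87 into spermatids (adjusted p = 0.00049), where the probesets of *H2ac19* alone gave 0.43 and 0.58 for the second step. The H2A.Z probesets that name *H2az1* with a predicted gene gave -1.18 and -0.76 into spermatids. Both were also lower in pachytene than in prepachytene spermatocytes and passed the adjusted threshold, although some arrays overlapped. Their pachytene arrays read 14.08 to 14.82 and 13.75 to 14.57, against 14.72 to 15.17 and 14.31 to 15.02 in prepachytene spermatocytes. The probeset of *Macroh2a2* with *Macroh2a3* gave 5.02 into pachytene (adjusted p = 1.2e-06).

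The 5 H3.3 probesets, each naming 6 genes that include *H3f3a* and *H3f3b*, read 10.19 or more on every array. All 5 were lower in pachytene than in prepachytene spermatocytes, by log2 differences of -1.33 to -0.31. In spermatids 3 were higher than in pachytene spermatocytes (0.63 to 0.76), 1 was lower (-3.90, adjusted p = 1.7e-06) and 1 differed by -0.15 (adjusted p = 0.41). Their PWD minus B6 differences in prepachytene spermatocytes were -0.30 to 0.82, beside -2.03 for the *H3f3b* probeset and 1.39 for that of *H3f3a*.

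The H3 probesets disagreed on strain. A pair naming the same 8 genes, *H3c4* and *H3c7* among them, gave PWD minus B6 log2 differences of -3.40 (adjusted p = 0.00038) and 2.36 (adjusted p = 0.018) in pachytene spermatocytes and of -4.47 (adjusted p = 6.4e-05) and 1.10 (adjusted p = 0.23) in spermatids. The first of them read 3.67 and 3.97 in PWD against 7.11 and 7.34 in B6 pachytene spermatocytes, and in PWD spermatids, where both arrays were below background, it was at least 11.0-fold lower than in B6. A pair naming the same 12 H3 genes gave 4.33 (adjusted p = 4.8e-05) and 2.27 (adjusted p = 0.23) in spermatids, and in the first of these the step into spermatids differed between the strains by 3.86 (adjusted p = 0.0021). Which H3 gene these signals come from cannot be told.

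**Figure D4:**
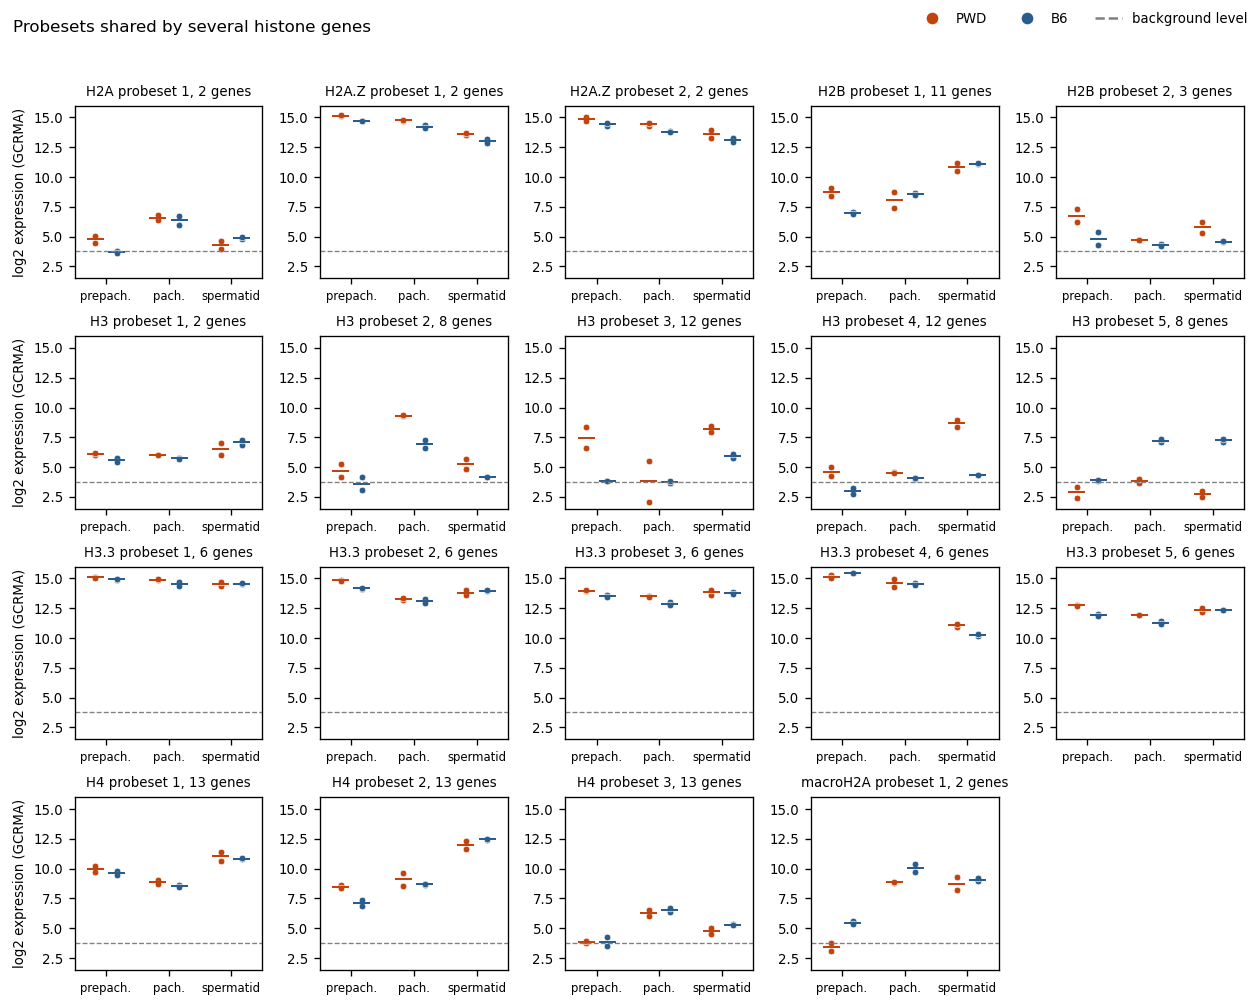
Log2 level (y axis) of the 19 probesets above background that name several histone genes, in prepachytene spermatocytes, pachytene spermatocytes and spermatids (x axis). Points are single arrays, short bars are means of 2 arrays, PWD stands left of B6, and background (3.78) is drawn dashed. H3 probesets 2 and 5 name the same 8 genes, and probeset 5 reads 7.11 and 7.34 in B6 pachytene spermatocytes against 3.67 and 3.97 in PWD.

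Gene lists of histone supply were set beside the members. Of the 22 S phase genes, all measured, 19 were lower and 2 higher in pachytene than in prepachytene spermatocytes, with a median log2 difference of -2.00 against 0.08 for all genes. At this step 28.4% of all genes were lower and 43.7% higher. The licensing factor *Cdt1* read 1.90 in pachytene, below background, against 10.08 in prepachytene spermatocytes, at least 78.6-fold lower (fitted log2 difference -8.18 ± 0.14, adjusted p = 6.8e-09). The helicase subunit *Mcm4* read 5.59 against 12.34 (-6.75 ± 0.15, adjusted p = 1.4e-08). Of the 31 measured of 36 histone chaperone and remodeler genes 19 were lower and 10 higher, with a median of -0.91. They include *Rbbp7*, a subunit of histone-binding complexes (-9.14 ± 0.21, adjusted p = 1.9e-08), and *Dek* (-5.91 ± 0.29, adjusted p = 6.2e-07). *Anp32e*, which removes H2A.Z, read 3.72 in pachytene, below background, against 11.49 in prepachytene spermatocytes and so was at least 208-fold lower (fitted log2 difference -7.77 ± 0.19, adjusted p = 2.4e-08). In spermatids 13 of the 31 were lower and 3 higher than in pachytene spermatocytes, beside 23.8% and 18.2% of all genes. Those that rose were *Dek* (3.22 ± 0.29, adjusted p = 5.4e-05), *Rbbp7* (2.74 ± 0.21, adjusted p = 2.7e-05) and the acetyltransferase *Hat1* (2.18 ± 0.24, adjusted p = 0.00017).

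Of 19 measured genes (of 20 listed) for the transcription and 3′ end processing of histone messengers, 10 were lower and 7 higher in pachytene than in prepachytene spermatocytes. The shares of all genes were 28.4% and 43.7%, and the median log2 difference of the 19 was -1.02. The stem-loop binding protein gene *Slbp* had a log2 difference of -1.02 into pachytene and then read 7.53 in spermatids against 12.02 in pachytene spermatocytes (-4.49 ± 0.19, adjusted p = 2.1e-06). *Casp8ap2*, which acts in histone locus bodies, was lower in pachytene than in prepachytene spermatocytes (-5.77 ± 0.51, adjusted p = 2.4e-05), and *Coil* and *Mblac1*, an endonuclease of histone pre-mRNA, were higher (2.81 ± 0.12, adjusted p = 3.8e-07, and 3.70 ± 0.19, adjusted p = 9.2e-07). In spermatids 11 of the 19 were lower than in pachytene spermatocytes and 3 higher, beside 23.8% and 18.2% of all genes. Between the strains the U7 particle gene *Lsm10* was higher in PWD in all 3 populations (2.51, 3.71 and 3.86 in their order), and the remodeler subunit gene *Znhit1* was lower in all 3 (-4.41, -3.05 and -2.78). In prepachytene spermatocytes 2 of the 19 processing genes, 8 of the 31 chaperone genes and 3 of the 22 S phase genes were higher in PWD than in B6, and 1, 2 and 1 of the same lists were lower. In pachytene spermatocytes 6, 4 and 6 were higher and 0, 1 and 3 lower, and in spermatids 4, 1 and 4 were higher and 0, 2 and 2 lower. Over all genes 16.6% were higher and 5.88% lower in prepachytene spermatocytes, 12.1% and 5.05% in pachytene spermatocytes and 9.56% and 7.54% in spermatids.

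Outside the rule, 4 of 21 other histone-fold genes were measured. The spermatid variants *H2bl1* and *H2al2a* were higher in spermatids than in pachytene spermatocytes (log2 differences 3.85 ± 0.23, adjusted p = 7.1e-06, and 3.83 ± 0.21, adjusted p = 5.1e-06). The centromeric H3 gene *Cenpa* read 2.75 in pachytene, below background, against 10.79 in prepachytene spermatocytes, at least 128-fold lower (fitted log2 difference -8.04 ± 0.27, adjusted p = 8.8e-08), and was higher in PWD than in B6 prepachytene spermatocytes (1.78 ± 0.38, adjusted p = 0.013). *H2bl1* was also higher in PWD than in B6 prepachytene spermatocytes (1.53 ± 0.32, adjusted p = 0.013), the arrays in which the spermatid markers stood higher too.

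**Figure D5:**
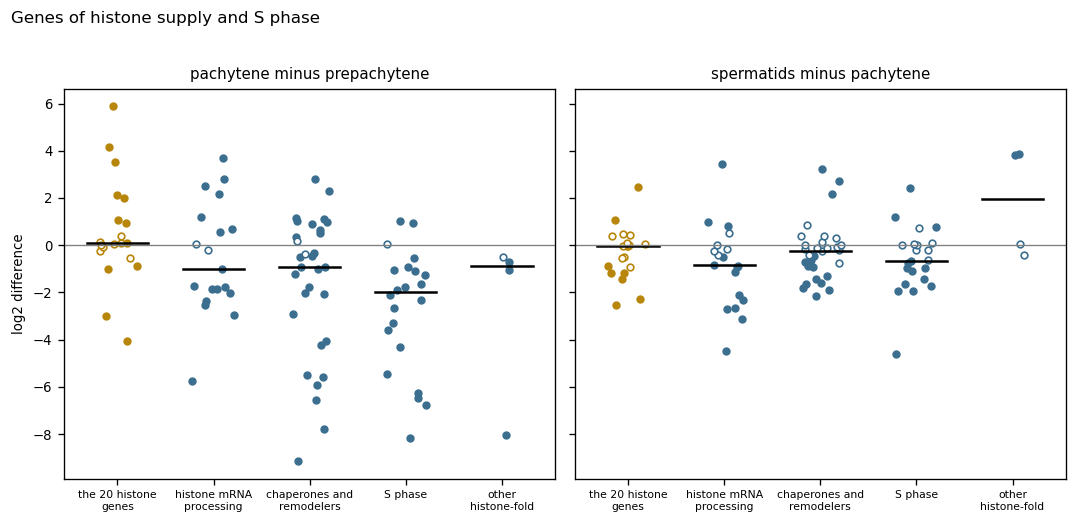
Log2 difference (y axis), pachytene minus prepachytene (left) and spermatids minus pachytene (right), of the 20 histone genes and of the genes measured from the lists of histone messenger processing, chaperones and remodelers, S phase and other histone-fold genes (x axis). Points are genes, filled where they passed the adjusted threshold, and black bars are medians. The S phase list has its median at -2.00 in the left panel and the 20 histone genes have theirs at 0.08. The median of the histone genes was set there by *H3c4* and *H3c7*, which read below background.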

How the data were processed

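The values were deposited by the authors as log2 expression values after GCRMA, which the submitters' processing notes name without a version, for 45101 probesets on 12 arrays in 6 groups of 2. RNA was amplified with the Affymetrix Two-Cycle protocol, which starts from oligo(dT). Sorted populations were compared by group means in limma 3.58.1 (R 4.3.3, eBayes with a variance trend), over the 45037 probesets left after 64 controls. P-values were adjusted by Benjamini-Hochberg over all of these at a threshold of 0.05. A gene was read by its probeset with the highest mean, and 932 probesets that name several genes and 9160 that name none were kept out of gene counts. The background level is the 95th percentile of 55 probesets of genes of other organs. The fitting step was tested on simulated data.

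The labels do not say that a replicate number marks an animal, so p-values measure the spread between these arrays, and precision is limited by 2 arrays a group. Members, lists and alternatives were chosen with earlier results of these data known. Named with values are the testis, replacement and linker genes, the replication-dependent genes that passed, members whose steps differed between strains and up to 4 genes per other list. *Macroh2a3*, *H3c4*, *Lsm10*, *Znhit1* and the probesets of several genes were chosen after their values were seen. Alternatives were another variance prior, repeated quantile normalization, centred arrays, a filter on dim probesets, replicate blocks, fits of the compared arrays alone, other probesets, a stricter threshold and each array left out.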

Additional observations from a re-analysis of the deposited data

Results flagged for a closer look

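The step of *H3f3b* into pachytene passed the test of a difference between the strains, with a PWD minus B6 difference of 2.79 ± 0.36 on the log2 scale (limma, adjusted p = 0.0024). It was made of 0.39 ± 0.26 in PWD and -2.41 ± 0.26 in B6, with 2 arrays in each group. The 5 probesets that name *H3f3a* and *H3f3b* with other genes gave strain differences of this step that did not pass.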

How the results depend on the processing

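Over the alternatives to the 12 counts of histone genes, 232 values stayed within 1.5 times the main count and 44 did not. Centred arrays, which moved the median of all genes from 0.08 to 0.56 at the step into pachytene and from 0.01 to 0.27 at the step into spermatids, gave 13 genes higher in pachytene than prepachytene (main 8), 7 higher in spermatids than pachytene (main 2), 4 lower in PWD than B6 prepachytene (main 1) and 2 lower in PWD than B6 pachytene (main 1). They moved the PWD minus B6 median of all genes to -0.26, -0.09 and -0.14 in the 3 populations. Over all 18193 genes the same counts with centred arrays were 11781, 8846, 4473 and 1154 in that order. With only the arrays compared, 2 genes were higher in PWD than B6 prepachytene (main 4), 0 higher in PWD than B6 pachytene (main 1) and 0 lower in PWD than B6 spermatids (main 1), and 2 steps into pachytene (main 1) and 4 into spermatids (main 0) differed between the strains. At an adjusted p under 0.01, 2 were higher in PWD than B6 prepachytene, and 0 were lower in PWD than B6 pachytene and 0 in spermatids. With only probesets above background, 2 were higher and 2 lower in PWD than B6 pachytene, and 5 steps into pachytene and 1 into spermatids differed between the strains. Of the 11047 genes kept there, 2682 were higher and 939 lower in PWD than B6 pachytene. Their steps that differed were 1242 positive and 1300 negative into pachytene, and 278 positive and 369 negative into spermatids. Counting any probeset of a gene gave 2 higher and 2 lower in PWD than B6 pachytene, 2 higher in PWD than B6 spermatids and 1 step into spermatids that differed. The probeset with no suffix gave 2 lower in PWD than B6 pachytene and 1 such step.

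Leaving out 1 array at a time gave 7 to 12 genes higher and 4 to 5 lower in pachytene than prepachytene, 2 to 4 higher and 5 to 7 lower in spermatids than pachytene, 3 to 7 higher and 1 to 2 lower in PWD than B6 prepachytene, 1 to 1 higher and 0 to 1 lower in pachytene, 1 to 2 higher and 0 to 2 lower in spermatids, and 1 to 3 and 0 to 1 steps that differed between the strains. The count of 12 higher in pachytene came without array 1 of PWD prepachytene and the count of 7 higher in PWD without array 2. Leaving out either of these 2 arrays gave 4 genes higher in spermatids than pachytene and 2 higher and 2 lower in PWD than B6 spermatids, and 2 and 3 steps into pachytene that differed. The other arrays whose loss moved a count by over 1.5 times were array 2 of B6 prepachytene, array 1 of PWD pachytene, both of B6 pachytene, both of PWD spermatids and both of B6 spermatids.

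Of 52 gene-by-comparison results 1041 alternative values kept direction and call, 52 gained the call, 35 lost it and 12 turned round. The step of *H2az1* into pachytene (main -0.08) was 0.057 after repeated quantile normalization, 0.40 with centred arrays, and 0.11, 0.04 and 0.01 without array 1 of PWD prepachytene, B6 prepachytene and PWD pachytene. *H2aw* in PWD minus B6 prepachytene (main -0.60) was -1.25 and 0.041 without array 1 and array 2 of PWD prepachytene. Without the same arrays *H1f4* gave 0.16 and -1.25 into pachytene and 0.12 and -2.69 for the strain difference of that step. The suffix-free probeset of *H1f2*, below background, gave 0.034 into pachytene, -0.052 for PWD minus B6 spermatids, and 0.012 and -0.070 for the strain differences of the steps. The cause was not tested.

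Same-numbered arrays correlated at -0.22 to 0.07 in their deviations. PWD pachytene stood at -0.22 with PWD prepachytene and at -0.16 with PWD spermatids, and crossed numbers could also give negative values. Whether the numbers pair the samples was therefore not settled. A replicate block, fixed, random or with the PWD pachytene numbers crossed (added after seeing the data), left all 12 counts as they were, with 8 higher and 4 lower in pachytene, 2 and 6 in spermatids, 4 and 1, 1 and 1, and 1 and 1 in PWD, and 1 and 0 steps that differed.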

Other observations

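An H4 probeset naming 13 genes read 2.83 and 2.71 in PWD and 5.16 and 4.92 in B6 prepachytene spermatocytes (fitted log2 difference -2.27, adjusted p = 1.4e-05, at least 2.38-fold lower in PWD, where it was below background) and 3.00 to 3.31 on the other 8 arrays. A probeset naming 6 genes, 5 of them H2B, read 3.32 and 3.32 in PWD and 2.20 and 2.22 in B6 prepachytene spermatocytes (1.11, adjusted p = 8.2e-07), all below the background level of 3.78. Of the H3 probesets that name the same 12 genes, the one with the s suffix read 5.56 and 2.08 on the arrays of PWD pachytene spermatocytes and the other read 4.58 and 4.50.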
